A study of Mus musculus with 12 samples.

Results

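*Alkbh5* and 9 genes that lie beside it on mouse chromosome 11 were followed in oocytes that carry or lack the *Alkbh5* knockout allele. The members are the rows of the deposited count table that map to the symbols *Alkbh5*, *Llgl1*, *Flii*, *Mief2*, *Top3a*, *Smcr8*, *Shmt1*, *Drg2*, *Gid4* and *Atpaf2*, which is 10 of 56691 genes. They were chosen by name and place on the chromosome, at a time when earlier results of these data were known. The question put to them was whether a mutation at *Alkbh5* comes with a change in the RNA of the genes next to it.

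Messenger RNA was sequenced in 12 libraries of pooled mouse oocytes, with 2 libraries in each of 6 groups, which combine 2 genotypes with 3 stages. The genotypes were wild type (WT) and *Alkbh5*-/- (KO), both of C57BL/6 background, and the KO was a whole-body deletion of exon 1 with the start codon, made with CRISPR-Cas9. Every cell of the KO animals, ovarian somatic cells included, therefore lacked the gene. Oocytes came from juvenile females primed with PMSG, a gonadotropin that stimulates follicle growth, and were cultured in M16 medium. The stages were germinal vesicle (GV), the arrested immature oocyte, germinal vesicle breakdown (GVBD), at which meiosis resumes, and metaphase II (MII), the second arrest at which the egg awaits fertilisation. The study took the samples of these stages at set times in culture, so below a stage name, as in MII oocytes, stands for such a time. It describes poor maturation of KO oocytes in culture, where most of them stayed at GV. Its text was not found to say whether KO oocytes were picked by stage, so genotype and actual stage cannot be told apart at GVBD and MII. The study calls the libraries of a group biological replicates, and the labels do not say which animals each pool came from. The p-values below rest on the spread between these libraries. The edgeR test used below draws the spread of each gene toward that of all genes. For KO against WT at MII and for GV to MII in WT the shared value took over almost wholly. P-values there say little of a gene's own spread.

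Total counts per library ranged from 28557742 to 40247810. A mix of synthetic ERCC RNAs had been added to each tube, and counts were divided by a factor proportional to the ERCC total of the library, which ranged from 0.549 to 2.08. The values below are such spike-in-scaled counts unless raw counts are named. The 10 oocyte markers examined, among them *Zp3*, *Gdf9* and *Bmp15*, all had counts in every library. The 10 markers of cumulus and granulosa cells summed to more in both KO than in both WT libraries of each stage, in CPM (counts scaled to the library total). The KO sums were 35.0 to 40.6 at GV against 28.1 to 34.3 in WT. They were 37.3 to 56.7 against 24.8 to 33.6 among GVBD oocytes and 43.5 to 74.5 against 35.8 to 40.7 among MII oocytes. Between 7 and 9 of these 10 markers had a count in each group. *Cyp19a1* (577 to 2225 raw counts) and *Fshr* (17 to 221) had counts in every library, while *Amh* was at 0 in 5 of the 6 groups. Most of the summed counts of every library came from *Cyp19a1*, so the sums mainly follow that gene. Other markers did not all share its order. *Inha* at GV had 46 and 123 raw counts in WT against 28 and 9 in KO. The 3 blood markers (*Ptprc*, *Hbb-bs* and *Hba-a1*) varied between libraries, from 0.52 to 3302 CPM, and at GVBD both WT libraries (1707 and 1889) exceeded both KO libraries (2.66 and 6.40). The part of either marker list in the differences given below was not tested.

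N6-methyladenosine (m6A) is the most abundant internal mark on messenger RNA and affects its splicing, export, decay and translation. Writer enzymes place it, reader proteins bind it, and the demethylases FTO and ALKBH5 take it off. ALKBH5 is a dioxygenase that needs iron and 2-oxoglutarate and is found mostly in the nucleus. The fully grown oocyte has largely stopped transcription when it resumes meiosis, so changes of RNA level between GV and MII are mostly changes in storage and decay. The corresponding human genes lie together in the interval deleted in Smith-Magenis syndrome, from which *Smcr8* takes its name.

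On GRCm38 *Alkbh5* occupies chr11:60536381-60558512 on the plus strand. The nearest expressed protein-coding neighbour is *Drg2*, 67.6 kb before it, since *Myo15*, 8.0 kb before it, had counts in only 2 libraries (scaled counts of 9.9 and 5.0). *Gid4* lies 85.5 kb and *Atpaf2* 117.9 kb before it. After *Alkbh5* come *Llgl1* at 141.2 kb, *Flii* at 155.6 kb, *Mief2* at 169.9 kb, *Top3a* at 181.5 kb, *Smcr8* at 219.0 kb and *Shmt1* at 229.6 kb. The gap between *Alkbh5* and *Llgl1* holds 17 annotated genes, 16 of them pseudogenes. *Llgl1* and *Flii* run toward each other and share 64 exonic bases, and *Smcr8* and *Shmt1* share 184, so a few reads there could be counted for either gene if strand was not used.

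Exon 1 of the coding *Alkbh5* transcript spans chr11:60537978-60539195, inside the gene. It holds 1218 of the transcript's 5730 bases (21.3%) and 773 of its 1185 coding bases (65.2%), and the other 4512 bases (78.7%) lie in exons 2 to 4. The start codon that the allele removes is shown here with the bases that follow it in exon 1, read from the GENCODE M21 transcript at chr11:60538423-60538482, plus strand, with the start codon in capitals.

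*Alkbh5* coding start: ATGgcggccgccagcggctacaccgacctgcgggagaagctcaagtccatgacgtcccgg

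RefSeq promoter windows on GRCm38.p6, from 250 bases before to 50 bases after each start, were found for 8 of the 10 genes, *Top3a* and *Smcr8* being the exceptions. The windows of *Alkbh5* and *Gid4* are shown because these were the members with the most RNA in WT GV oocytes, and because the *Gid4* window is also the start region of *Atpaf2* on the opposite strand, with 210 bases shared. Capitals mark GGGCGG (the GC box) on either strand in both windows and, in the *Gid4* window, also CACGTG (the E-box), which reads the same on both strands. The *Alkbh5* window is chr11:60537433-60537732 and the *Gid4* window chr11:60416895-60417194, both plus strand.

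*Alkbh5*: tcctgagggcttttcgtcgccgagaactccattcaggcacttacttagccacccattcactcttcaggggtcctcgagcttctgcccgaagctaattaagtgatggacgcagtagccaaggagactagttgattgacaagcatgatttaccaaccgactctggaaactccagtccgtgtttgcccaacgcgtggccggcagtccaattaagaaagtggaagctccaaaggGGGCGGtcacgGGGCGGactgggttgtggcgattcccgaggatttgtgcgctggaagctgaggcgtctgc
*Gid4*: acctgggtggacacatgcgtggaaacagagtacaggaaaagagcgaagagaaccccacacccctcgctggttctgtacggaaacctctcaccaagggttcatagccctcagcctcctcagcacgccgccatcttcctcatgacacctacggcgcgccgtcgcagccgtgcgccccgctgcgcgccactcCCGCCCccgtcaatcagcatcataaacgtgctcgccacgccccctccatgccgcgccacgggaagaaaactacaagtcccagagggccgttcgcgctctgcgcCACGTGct

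The GC box was found in 7 of the 8 windows, against 35.7% of all 32851 windows, and the E-box in 4 of 8 (*Atpaf2*, *Gid4*, *Drg2* and *Mief2*), against 7.15%. The CCAAT box (CCAAT on either strand, not capitalised above) was found in 4 of 8, against 37.4%. Since the *Gid4* and *Atpaf2* windows share bases, their E-box is a single site and so is 1 of their GC boxes, which leaves 3 distinct E-boxes and 13 distinct GC boxes. The windows of the members held 53.7 to 70.0% G and C, against a median of 52.7% over all windows, and 16 to 35 CpG pairs, against a median of 7. These letters are a description of the windows and say nothing of which factor binds there.

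The knockout was checked first. At GV *Alkbh5* had 6354 and 8505 scaled counts in WT oocytes against 260.4 and 94.4 in KO. The WT libraries of GVBD held 13653 and 4812 and the KO libraries 88.8 and 124.5. For MII the values were 5587 and 3020 in WT against 94.1 and 50.9 in KO. No KO library came near any WT library, and each KO library held between 0.96 and 3.50% of the WT mean of its stage. The exon that the allele removes makes up 21.3% of the transcript, so the fall reached the rest of the RNA too, although counts per gene do not show on which exons the remaining 54 to 143 raw reads of a KO library fell.

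The log2 fold change of *Alkbh5* (KO over WT) was -5.41 ± 0.52 (SE, n = 2 per group) at GV, -6.43 ± 0.70 at GVBD and -5.89 ± 0.99 at MII, with adjusted p of 0.046, 1.26e-05 and 3.6e-06 by the edgeR quasi-likelihood test. In the fit of all stages together, in which stage was a covariate, it was -5.90 ± 0.42 (n = 6 per genotype, adjusted p = 1.61e-05). A gene was called when its adjusted p was under 0.05 and its level differed at least 2-fold. *Alkbh5* was the single member called in each of these comparisons. Of all tested genes 0.0977% were called at GV, 2.54% at GVBD, 0.803% at MII and 1.26% over all stages. At GV the call was lost with all 12 libraries in a single model (adjusted p = 0.0551), with a replicate block (0.182) and without KO replicate 1 (0.182) or 2 (0.143), by edgeR in each case. It was also lost without WT replicate 1 at GVBD (0.0586) and at MII (0.19), while the log2 fold change stayed at -4.83 or lower throughout.

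**Figure D1:**
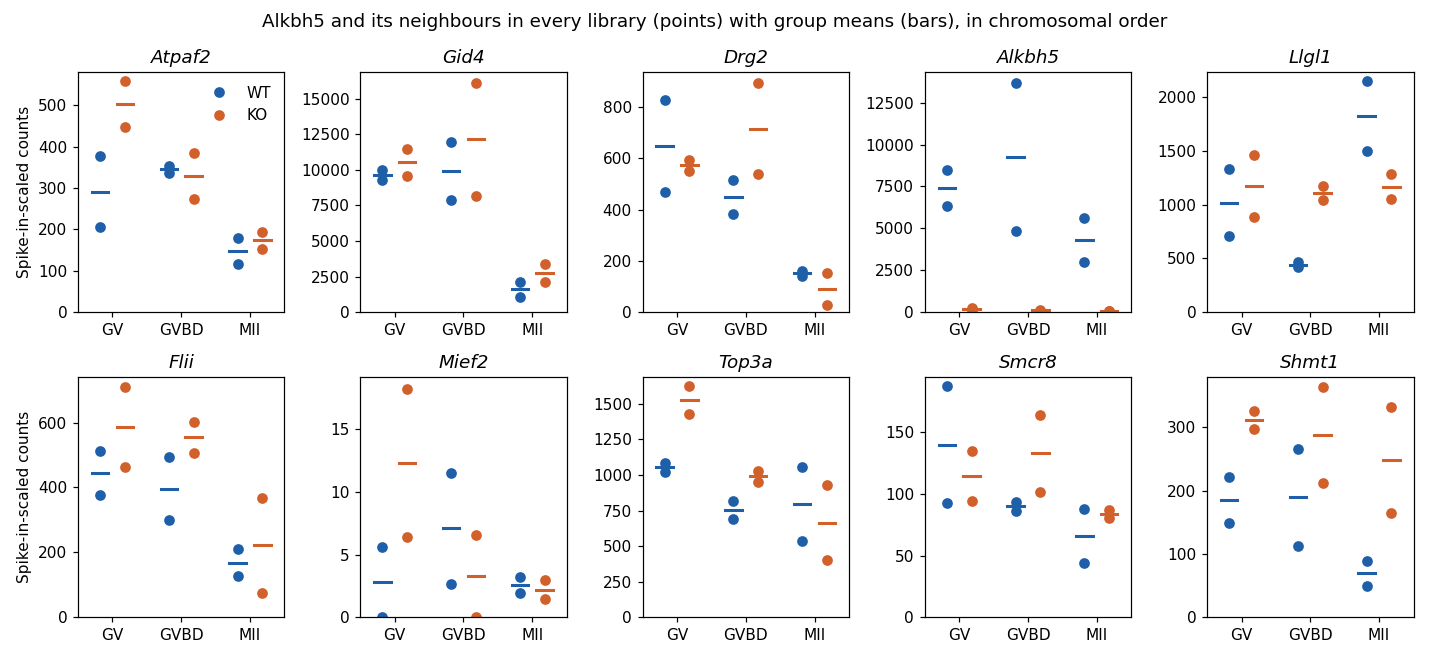
Spike-in-scaled counts (y axis, linear from 0, own scale for each gene) of the 10 genes at GV, GVBD and MII. Points are single libraries, 2 per genotype and stage, and short bars are their means. *Alkbh5* lies at 50.9 to 260.4 in KO and at 3020 to 13653 in WT, while the KO and WT points of *Gid4* overlap at all 3 stages.

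None of the 9 neighbours was called over all stages, against 1.26% of all tested genes, so a count of 0 among 9 genes is near the background. The median log2 fold change of the neighbours was 0.29, and that of all 22004 tested genes was also 0.29. With spike-in scaling the typical gene was therefore higher in KO, and with TMM scaling, which centres on the genes themselves, that median was 0.02. Against the median of all genes 5 neighbours lay above and 4 below. For 8 of the 9 the 95% interval of the log2 fold change, which is not adjusted for the number of genes, stayed above -1, and for 6 of these it also stayed below 1. *Mief2*, whose raw counts did not exceed 13 in any library, had the widest interval, from -2.66 to 3.10.

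Before *Alkbh5*, nearest first, stands *Drg2*, which encodes a GTP-binding protein of a conserved family tied to translation. Its values overlapped at GV (827.0 and 468.2 in WT, 595.4 and 549.8 in KO) and at MII (161.9 and 140.7 in WT, 154.1 and 27.9 in KO), and at GVBD the KO libraries (894.5 and 537.6) were above the WT libraries (382.2 and 515.4). Over all stages its log2 fold change was -0.08 ± 0.39 (adjusted p = 0.936). *Gid4* encodes a substrate receptor of the CTLH ubiquitin ligase. It was the most abundant neighbour, with 10014 and 9307 scaled counts in WT and 11459 and 9590 in KO at GV. Its genotypes overlapped at all 3 stages, and the log2 fold change over all stages was 0.40 ± 0.26 (adjusted p = 0.439). *Atpaf2*, an assembly factor of the mitochondrial ATP synthase whose start region faces that of *Gid4*, had 206.4 and 376.5 in WT and 558.9 and 447.8 in KO at GV. These did not overlap, but the log2 fold change of 0.79 ± 0.39 at GV had an adjusted p of 0.353. Over all stages *Atpaf2* stood at 0.32 ± 0.29 (adjusted p = 0.596).

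After *Alkbh5* the first protein-coding gene is *Llgl1*, a homologue of the fly gene lethal giant larvae and a regulator of cell polarity. At GV its values overlapped, with 1331 and 703.7 in WT and 886.6 and 1457 in KO. At GVBD the WT libraries held 415.7 and 464.9 and the KO libraries 1176 and 1042. At MII the order was the opposite, with 2146 and 1496 in WT and 1286 and 1046 in KO. WT oocytes thus showed a low GVBD level and a high MII level, and the KO libraries stayed between 886.6 and 1457 at all 3 stages.

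The log2 fold change of *Llgl1* (KO over WT) was 0.20 ± 0.39 at GV, 1.33 ± 0.54 in the GVBD libraries (adjusted p = 0.223) and was -0.64 ± 0.82 among MII oocytes (adjusted p = 0.9999). At GVBD the KO mean was 2.52 times the WT mean, and the estimate stayed between 0.99 and 1.42 in all alternatives run, none of which called it. A term for the genotype difference in the GVBD to MII change, added after these values were seen, was -1.97 ± 0.82 for *Llgl1* (unadjusted p = 0.0281, adjusted p = 0.734, n = 2 per group, edgeR). Called in that comparison were 0.0626% of all tested genes and none of the 10 members, so the change of order between stages did not pass the test.

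*Flii*, a gelsolin-family regulator of actin that also acts as a nuclear coactivator, had 377.3 and 513.3 in WT and 708.2 and 464.4 in KO at GV. Its KO libraries were above the WT libraries at GVBD and spanned them at MII, and over all stages it stood at 0.43 ± 0.35 (adjusted p = 0.547). *Mief2* encodes an adaptor of the outer mitochondrial membrane that recruits the fission protein DRP1. It was near the limit of detection, passed the filter on low counts only in the comparison over all stages, and stood there at 0.22 ± 1.35 (adjusted p = 0.948). *Top3a* encodes topoisomerase III alpha, which resolves joined DNA molecules in recombination and in mitochondria. At GV it had 1024 and 1087 in WT and 1626 and 1429 in KO, with a log2 fold change of 0.53 ± 0.21 that did not pass the adjusted test (unadjusted p = 0.0409, adjusted p = 0.26), and over all stages it stood at 0.22 ± 0.28 (adjusted p = 0.708). *Smcr8*, a partner of C9ORF72 in autophagy and membrane traffic, stood at 0.21 ± 0.36 over all stages (adjusted p = 0.796). The estimates of *Mief2*, *Top3a* and *Smcr8* over all stages turned negative under TMM scaling and under median-of-ratios scaling.

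*Shmt1*, the cytosolic serine hydroxymethyltransferase that feeds carbon units into folate metabolism, had the largest estimate among the neighbours over all stages and at MII, while *Atpaf2* had it at GV and *Llgl1* at GVBD. At GV the WT libraries held 149.5 and 221.4 scaled counts and the KO libraries 296.8 and 325.3. GVBD oocytes had 265.5 and 113.4 in WT, with 363.4 and 211.5 in KO. MII oocytes had 89.3 and 49.6 in WT, with 332.3 and 164.0 in KO. The genotypes did not overlap at GV and MII and overlapped at GVBD, where 1 WT library exceeded 1 KO library.

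Over all stages the log2 fold change of *Shmt1* was 1.06 ± 0.37, with a 95% interval from 0.26 to 1.85, an unadjusted p of 0.0127 and an adjusted p of 0.153. It lay above 87.4% of all tested genes. By stage it was 0.75 ± 0.37 at GV, 0.60 ± 0.61 at GVBD and 1.84 ± 1.01 at MII, with adjusted p between 0.351 and 0.774. In the alternatives run over all stages the estimate lay between 0.80 and 1.3 and the adjusted p between 0.0701 and 0.358, so *Shmt1* was called in none of them. *Shmt1* is the member farthest from *Alkbh5*. *Smcr8*, which overlaps it, stood at 0.21.

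**Figure D2:**
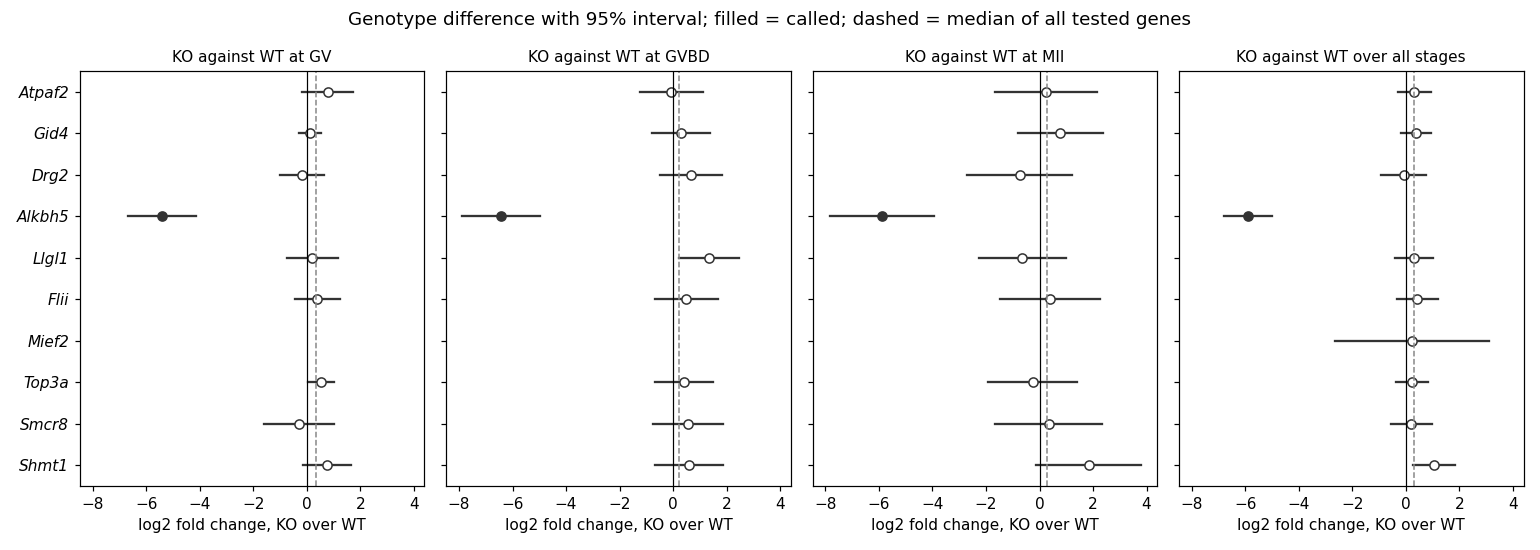
Log2 fold change, KO over WT (x axis), of the 10 genes in chromosomal order (y axis) at each stage and over all stages. Circles are edgeR estimates, filled where called, lines are 95% intervals and the dashed line is the median of all tested genes. The filled circles are those of *Alkbh5*, between -6.43 and -5.41, and all other intervals lie to the right of them.

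By stage, none of the 8 neighbours tested was called at GV (range -0.29 to 0.79), at GVBD (-0.07 to 1.33) or at MII (-0.74 to 1.84). These counts of 0 stand beside background shares of 0.0977%, 2.54% and 0.803%. At an unadjusted p under 0.05 there was 1 neighbour at GV (*Top3a*), 1 at GVBD (*Llgl1*), none at MII and 1 over all stages (*Shmt1*), where the shares of all tested genes were 17.9%, 14.9%, 7.32% and 18.8%. The DESeq2 Wald test also called *Alkbh5* alone in these 4 comparisons. The 95% interval lay within a 2-fold change in both directions for 1 of the 8 neighbours at GV and for none at GVBD or MII, so with 2 libraries per group a missing call at a single stage does not speak against a 2-fold change of the other neighbours.

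Within 500 kb of *Alkbh5* the table held 48 other genes, 20 of them protein coding, and 26 of the 48 were tested over all stages. None was called, beside 1.26% of all tested genes. The log2 fold changes of the 26 ranged from -1.46 ± 0.83 for *Map2k3* (adjusted p = 0.361) to 1.27 ± 0.66 for *Map2k3os* (adjusted p = 0.318). *Map2k3*, a kinase of the p38 pathway, and the antisense gene *Map2k3os* lie 373.5 and 362.4 kb after *Alkbh5*, next to each other. At GV alone the ends of the range were other genes, *Gm12622* (-2.24) and *Gm12625* (1.08). The median over all stages of the 26 genes was 0.26. No gene of the interval was called at a single stage. By edgeR an unadjusted p under 0.05 was reached by 5 of 24 tested at GV, 3 of 25 at GVBD and 4 of 20 at MII. The shares of all tested genes were 17.9%, 14.9% and 7.32%. At MII the log2 fold changes of the interval ranged from -2.21 to 4.71.

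The annotated gene closest to *Alkbh5* is *Gm12622*, a processed pseudogene on the minus strand at chr11:60560924-60561305, 2.4 kb beyond the end of *Alkbh5*. GV oocytes had 46 and 27 raw counts of it in WT and 8 and 4 in KO. GVBD oocytes had 24 and 27 in WT and 8 and 4 in KO. MII oocytes had 3 and 6 in WT and 5 and 4 in KO. At GV and GVBD every KO library was below every WT library, and at MII both genotypes were low.

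The log2 fold change of *Gm12622* was -2.24 ± 0.99 at GV (adjusted p = 0.306), with -1.68 ± 1.28 in the GVBD libraries (adjusted p = 0.588) and -1.20 ± 0.76 over all stages (adjusted p = 0.414), so it was not called. It was the lowest of the interval at GV, and the next lowest was *Gm12616*, 121.2 kb after *Alkbh5*, at -2.03 ± 1.07 (adjusted p = 0.383), with scaled counts of 27.3 and 29.6 in WT and 7.3 and 6.4 in KO. *Gm12622* belongs to a series of 10 short pseudogenes in this stretch that share 85.9 to 100% of their bases, and *Gm12616* is the copy closest to it, with 98.95% of bases the same. The highest gene of the interval at GV, *Gm12625* (1.08 ± 1.14), is also a copy of this series. The other copies tested at GV, *Gm12614*, *Gm12615* and *Gm12624*, stood at -0.10, -0.48 and -0.61. Since only uniquely mapped reads were kept, the counts of all these copies are uncertain, and which copy the reads came from cannot be told from counts per gene.

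**Figure D3:**
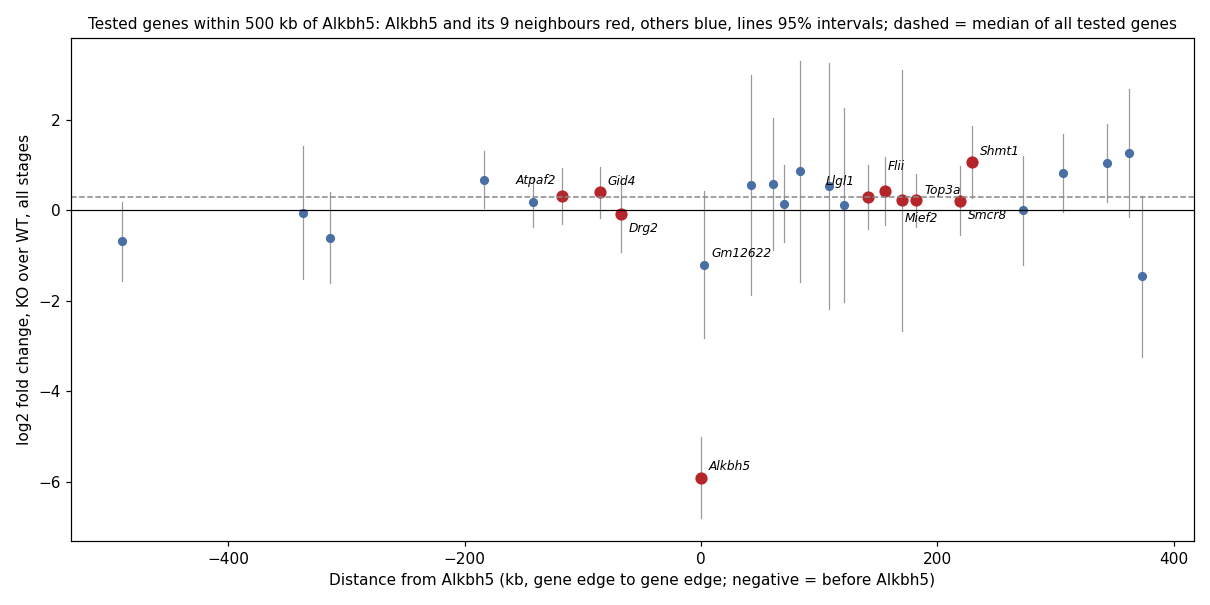
Log2 fold change, KO over WT over all stages (y axis), of tested genes within 500 kb against their distance from *Alkbh5* in kb (x axis, edge to edge, negative before the gene). *Alkbh5* and its neighbours are red, other genes blue, vertical lines are 95% intervals and the dashed line is the median of all tested genes (0.29). *Alkbh5* stands alone at -5.90, and the next lowest gene is at -1.46.

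Levels were compared between the members per kb of exon length, as scaled counts per kb. In WT GV oocytes the order was *Gid4* (1986 ± 103, SD, n = 2), *Alkbh5* (1241 ± 254), *Drg2* (238.4 ± 93.4), *Top3a* (229.5 ± 9.7), *Llgl1* (209.3 ± 91.3), *Atpaf2* (136.4 ± 56.3), *Flii* (88.4 ± 19.1), *Shmt1* (47.8 ± 13.1), *Smcr8* (17.3 ± 8.3) and *Mief2* (1.0 ± 1.5). The replicates of *Drg2*, *Top3a*, *Llgl1*, *Atpaf2* and *Flii* overlapped from each gene to the next, so this stretch of the order was not resolved. *Alkbh5* ranked above 92.7% and *Gid4* above 94.7% of genes with a count in WT GV oocytes. In KO GV oocytes *Alkbh5* stood at 29.6 ± 19.6 per kb, below *Shmt1* and with replicates that overlapped those of *Smcr8*.

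Between GV and MII the estimates of most genes were negative in WT oocytes, with a median log2 fold change of -1.06 over all tested genes, of which 30.9% were called in either direction and 30.5% were called as lower. *Gid4*, *Drg2* and *Flii* fell, 3 of the 8 neighbours tested. *Gid4* went from 10014 and 9307 scaled counts to 2104 and 1087, a log2 fold change of -2.60 ± 0.50 (adjusted p = 2.35e-06). *Drg2* changed by -2.10 ± 0.56 (adjusted p = 0.00112) and *Flii* by -1.40 ± 0.57 (adjusted p = 0.0446). A share of 3 in 8 is near the background. The call of *Gid4* was lost in 2 of 11 alternatives, those that left out a WT GV library. That of *Drg2* was lost in 6 of 11, these 2 included, and that of *Flii* in 8 of 11.

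*Llgl1* was the one neighbour with a positive estimate in WT, 0.84 ± 0.50 (adjusted p = 0.204), above 97.6% of all tested genes. With TMM or median-of-ratios scaling, which set the median of all genes to -0.22 and -0.08, *Llgl1* was called as higher at MII, and *Drg2* and *Flii* were not called. These scalings called 1329 and 1871 of the 18816 tested genes as higher, against 74 in the main fit. *Alkbh5* itself changed by -0.79 ± 0.47 in WT (adjusted p = 0.212), with a sign that turned under both of these scalings.

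In KO oocytes none of the 10 members was called between GV and MII, against 3.28% of all tested genes (median log2 fold change -1.17). *Gid4* changed by -1.95 ± 0.57 (adjusted p = 0.0766) and *Drg2* by -2.66 ± 0.93 (adjusted p = 0.119), each past an unadjusted p of 0.05. Both were called with DESeq2, with all 12 libraries in a single model, with a replicate block and with no filter on low counts. In that order, these alternatives called 4092 of 21343, 2933 of 22004, 2462 of 18777 and 2659 of 28535 tested genes. Without KO MII replicate 1 or 2 the estimates were -2.33 and -1.65 for *Gid4* and -4.35 and -1.89 for *Drg2*. Without KO MII replicate 1 the number of members called was 6 of 10, beside 54.2% of all tested genes. Replicate 2 had lower scaled counts than replicate 1 for all 10 members at MII, in WT as well as in KO. Counts of all genes together per ERCC count were also lower in replicate 2. They were 47.0 against 73.3 in WT and 54.7 against 87.9 in KO. The order is thus that of the whole library, and its share over all genes was not counted. *Llgl1* stood at -0.01 ± 0.64 in KO.

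**Figure D4:**
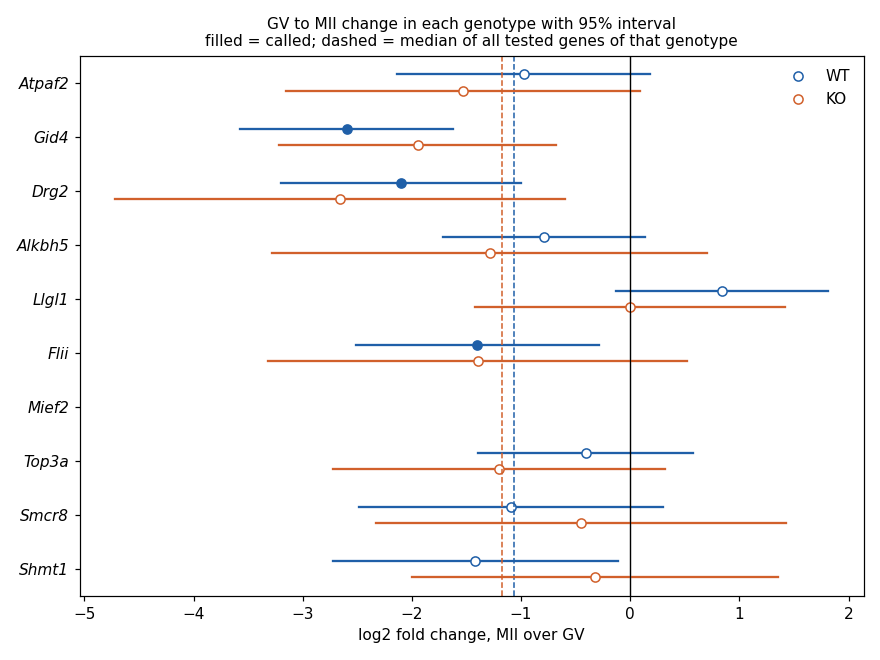
Log2 fold change from GV to MII (x axis) of the members in WT (blue) and KO (orange), with 95% intervals, filled circles where called and dashed lines at the median of all tested genes of each genotype. *Gid4*, *Drg2* and *Flii* are filled in WT, none is filled in KO, and the WT and KO intervals of each gene overlap.

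Whether the GV to MII change itself differed between genotypes was tested as an interaction over 8 libraries. None of the 10 members was called, and 0% of all tested genes were called by edgeR, with 1197 of 20807 at an unadjusted p under 0.05 and 178 called by DESeq2. The difference (KO change less WT change) ranged among the neighbours from -0.85 ± 0.73 for *Llgl1* to 1.09 ± 0.90 for *Shmt1*. For *Gid4* it was 0.65 ± 0.66, with a 95% interval from -0.80 to 2.10. A fall of *Gid4* or *Drg2* in WT and not in KO is thus not shown by these data.

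The m6A pathway was read from a list of 20 genes, namely writers such as *Mettl3*, *Mettl14* and *Wtap*, the demethylase *Fto*, and readers such as the *Ythdf* and *Igf2bp* families. In the KO against WT comparisons 19 were tested and none was called at GV, at GVBD, at MII or over all stages. Their median log2 fold change over all stages was 0.29, the same as that of all tested genes, and 5 of the 19 had an unadjusted p under 0.05, against 4146 of 22004 genes.

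Across the 12 libraries Pearson r with *Alkbh5* on log2 scaled counts ran from -0.51 for *Shmt1* to 0.21 for *Drg2*. The sign was negative for 7 of the 9 neighbours. A negative r was also common among all genes ranked by this measure. The r of *Gid4*, -0.0046, lay above that of 59.1% of these 10969 genes. The negative signs therefore do not set the neighbours apart. The points share genotype, stage and spike-in factor, and the values are a description. The genes most like *Alkbh5* over the same libraries, by the same measure and with a mean of at least 100 counts, were *Tex15* (r = 0.97), *Olfr1369-ps1* (0.96), *Hilpda* (0.95), *Blzf1* (0.93) and *Ptpn3* (0.93). None of them lies on chromosome 11. *Tex15*, a gene needed for meiotic recombination and transposon silencing in the male germ line, had 3135 to 5137 raw counts in WT (median 3806) and 119 to 659 in KO (median 433). *Hilpda*, which encodes a lipid droplet protein, had 489 to 1337 in WT (median 805) and 58 to 144 in KO (median 106). WT and KO did not overlap for either gene, which follows from choosing them by likeness to *Alkbh5*.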

How the data were processed

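Each sample was a pool of oocytes sequenced as 1 library. Counts were deposited by the authors as whole numbers of reads per gene and ERCC sequence, with no normalization. According to the methods and the submitters' processing notes, reads were trimmed with Cutadapt 1.9, aligned with HISAT2 2.0.4 to mm10 (GRCm38) joined to the ERCC sequences, filtered to unique hits, and passed to StringTie 1.3.4d. These versions are those of the processing notes, and the study's reporting summary gives others for Cutadapt and HISAT2. The step that made whole-number counts and the use of strand are not given in the sources used here. The methods describe template-switching cDNA and the sample labels a bulk dUTP protocol, so the library type is unsettled. Reads carry no molecular identifiers, so counts are not independent molecules.

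Symbols and positions came from Ensembl identifiers and GENCODE M21, and 52073 genes (91.9%) matched. The 10 members and all lists were chosen with earlier results of these data known. Each comparison was fitted with edgeR 4.0.16 in R 4.3.3, by its functions glmQLFit and glmQLFTest, on the whole table, with library sizes in proportion to ERCC counts (221927 to 838409 per library), genes kept by filterByExpr, two-sided tests and Benjamini-Hochberg adjustment over all tested genes. Standard errors are the log2 fold change over the square root of F, and 95% intervals follow from them. The script was also run on simulated counts with known changes.

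Named genes were the members, genes within 500 kb that lay between members or had an extreme value or a call, listed m6A genes if called, and the 5 genes most like *Alkbh5* (log2 of scaled counts plus 0.5). Alternatives were median-of-ratios and TMM scaling, a sum over the ERCC sequences that had 10 or more counts, no low-count filter, DESeq2 1.42.0, all 12 libraries in 1 model, no fold minimum, a block for the replicate number, and the removal of each library. Replicate numbers came from sample titles. Differences between same-numbered libraries correlated at -0.22 between genotypes at GV, 0.14 at GVBD and -0.19 at MII over 13273 genes. The sign differed between stages. With 1 such difference per group, these values cannot settle whether same-numbered libraries were paired, and the titles do not say.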

Additional observations from a re-analysis of the deposited data

Results flagged for a closer look

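*Llgl1* was flagged because both KO libraries were above both WT libraries at GVBD (log2 fold change 1.33) and below both at MII (-0.64). The difference between these effects was tested after the values were seen, as a genotype by stage term over 8 libraries. It was -1.97 ± 0.82 with an adjusted p of 0.734 by edgeR. How many of all tested genes change order in this way between stages was not counted. With 2 libraries per group, the flag alone therefore does not set *Llgl1* apart from other genes. At GVBD the blood markers also differed between genotypes, at 1707 and 1889 CPM (counts scaled to the library total) in WT against 2.66 and 6.40 in KO, and at MII they stood at 6.09 and 27.1 in WT and at 0.52 and 554 in KO. Their part in the *Llgl1* values was not tested. Groups of 2 libraries are too small for a search for single outlying libraries.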

How the results depend on the processing

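*Alkbh5* kept its direction in every genotype comparison and alternative run, and over all stages it was called in all of them. No neighbour was called in a genotype comparison under any alternative. Median-of-ratios and TMM scaling called 37 and 32 genes at GVBD, 2 and 43 at MII, and 608 and 599 over all stages. In the interaction terms they called 110 and 69 (GV to MII) and 30 and 29 (GVBD to MII), and in KO from GV to MII median-of-ratios called 930. With no low-count filter 666 genes were called at GV, 953 at GVBD, 1181 over all stages, 2659 in KO from GV to MII with 2 members, and 346 and 195 in the 2 interactions. DESeq2 called 564 at GV, 352 at MII, 1246 over all stages, 4092 in KO with 2 members, and 178 and 123 in the interactions. With all 12 libraries in 1 model the counts were 0 with 0 members at GV, 12 at GVBD, 219 at MII, 3839 with 1 member in WT from GV to MII, 2933 with 2 members in KO, and 2 in each interaction.

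Whether libraries with the same replicate number were paired is not known. A replicate block gave 0 calls and 0 members at GV, 214 calls at GVBD, 4 at MII, 519 over all stages, 2462 with 2 members in KO from GV to MII, and 0 in the GVBD to MII interaction. Pairing crossed numbers, chosen after seeing the data, gave 218 calls at GV, and 0 calls with 0 members at MII.

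Leaving out single libraries gave, for KO against WT, between 0 and 514 calls (GV), between 5 and 813 (GVBD) and between 11 and 542 (MII), with 0 to 1 members each, and 63 to 918 over all stages. It gave 2853 to 5347 with 0 to 4 members in WT from GV to MII, 39 to 11075 with 0 to 6 members in KO, and 0 to 285 and 0 to 227 in the interactions. The cause of these shifts was not tested.

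Some values that were called in neither setting changed sign. Under TMM and median-of-ratios scaling these were *Llgl1* (-0.15 and -0.18) and *Gid4* (-0.21 and -0.23) at GV, *Gid4* at GVBD (-0.000462, TMM only) and *Flii* at MII (-0.084 and -0.097). Over all stages they were *Mief2* (-0.16 and -0.17), *Top3a* (-0.071 and -0.093) and *Smcr8* (-0.019 and -0.032). From GV to MII in WT they were *Alkbh5* (0.030 and 0.17), *Top3a* (0.40 and 0.53) and *Atpaf2* (0.026, median-of-ratios only), and in KO *Llgl1* (1.21 and 1.23, and 0.030 with a replicate block), *Smcr8* (0.78 and 0.80) and *Shmt1* (0.71 and 0.72). In the interactions *Flii* turned to 3.48e-05 with ERCC sequences of at least 10 counts and *Smcr8* to 0.014 (GVBD to MII, median-of-ratios).

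Leaving out single libraries also turned signs. At GV the ranges were -0.20 to 0.73 for *Llgl1*, -0.71 to 0.30 for *Smcr8*, -0.53 to 0.29 for *Drg2* and -0.011 to 0.25 for *Gid4*. At GVBD they were -0.28 to 0.70 for *Gid4* and -0.33 to 0.15 for *Atpaf2*. At MII they were -1.14 to 1.13 for *Flii*, -0.99 to 0.31 for *Top3a*, -0.069 to 0.93 for *Smcr8*, -2.43 to 0.027 for *Drg2* and -0.047 to 0.57 for *Atpaf2*. Over all stages they were -0.26 to 0.76 for *Mief2* and -0.27 to 0.19 for *Drg2*. From GV to MII they were -0.98 to 0.00283 for *Top3a* in WT, and -0.32 to 0.40 for *Llgl1* and -0.92 to 0.095 for *Shmt1* in KO. In the GV to MII interaction they were -1.06 to 0.40 for *Alkbh5*, -1.53 to 0.73 for *Flii* and -2.25 to 0.21 for *Drg2*, and in the GVBD to MII interaction -0.40 to 1.10 for *Alkbh5*, -1.62 to 0.64 for *Flii* and -0.63 to 0.37 for *Smcr8*.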
